A study of Arabidopsis thaliana with 14 samples.

Results

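The intervals described here are the rows typed as intergenic in the deposited count tables that lie wholly within chromosome 1 from 11.5 to 17.7 Mb, chromosome 2 from 1.1 to 7.2 Mb, chromosome 3 from 10.3 to 17.3 Mb, chromosome 4 from 1.5 to 6.3 Mb or chromosome 5 from 9.0 to 16.0 Mb of TAIR10. They number 18434, which is 35.9% of the 51389 intergenic rows among 109972 rows in all, and 3515, 3626, 4483, 2623 and 4187 of them lie on chromosomes 1 to 5 in that order. Messenger RNA was sequenced from siliques of Arabidopsis thaliana collected 6 to 9 days after anthesis, in 14 libraries of 3 siliques each. They came from WT Col-0 plants (n = 2), untreated plants of Col-0 background that carry the jas-3 insertion allele of JASON (n = 2), jas-3 plants given the solvent DMSO (n = 3), and the line Aza1, derived from jas-3 plants grown on 5-Azacytidine, in its generations eM2 (n = 3) and eM3 (n = 4). These generations are eM1 and eM2 in the labels, and the names of the study are used here. JASON mutants make some diploid pollen, so a part of the seeds in jas-3 siliques is triploid, which commonly abort, and the study asked whether 5-Azacytidine lets such seeds survive. Aza1 was taken on because few of its seeds aborted, and all its libraries descend from this 1 treated line, so p-values here measure the spread between siliques and siblings and not that between treated lines.

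The pericentromere is the stretch of a chromosome on either side of the centromere, where genes are sparse and transposable elements (TEs) dense. In Arabidopsis most of it is heterochromatin, in which DNA methylation kept by MET1 and the chromomethylases, histone methylation and the chromatin remodeler DDM1 hold TEs and the DNA around them silent. 5-Azacytidine is a cytosine analog that is built into new DNA and cannot be methylated, so that methylation is lost as cells divide.

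JASON (AT1G06660) had 14 and 14 counts in WT and between 80 and 225 counts in each of the 12 other libraries, so the transcript was not lower in the jas-3 background, and the groups are named by their labels. Total gene counts lay between 40526464 and 43974069 per library. Genes for seed storage proteins, which mark the maturing embryo, took 36.7% and 42.5% of the gene counts in WT, 7.97% and 17.0% in jas-3, 10.7% to 22.6% in DMSO, 21.8% to 30.7% in Aza1 eM2 and 14.9% to 27.6% in Aza1 eM3. The 5 endosperm markers AGL62, FIS2, MEA, ZOU and IKU2 summed to 22.7 and 23.9 counts per 1000000 scaled gene counts in WT and to 56.5 to 75.0 in the other libraries. On the same scale the 3 silique wall markers summed to 2850 and 3010 in WT, 4450 and 5970 in jas-3 and 2830 to 4210 in the other groups, and the 3 pollen markers to 83.5 and 146 in WT and 25.6 to 70.2 elsewhere. No marker of the lists for embryo, endosperm, silique wall and pollen was at 0 throughout a group. In these whole siliques, fewer cells of a type and less RNA per cell cannot be told apart. The part of these differences in tissue in the results below was not tested, except where a fit with the storage share as a covariate is given.

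The intervals were short and set between TEs. An interval is written here with the last base of the feature before it and the first base of the feature after it, as the files give it, and 7108 of the 18434 (38.6%) held no base of their own because the features on either side abut. Another 2570 held 1 to 99 bases and 8756 held at least 100, with a median of 415 bases over those with at least 1 and 8.55 Mb in all. Outside the limits 13.1% of 32953 intergenic rows held no base, and the median was 579 bases. Of the pericentromeric intervals 13771 (74.7%) lay between 2 TEs and 1040 (5.64%) between 2 genes, against 19.9% and 52.2% of the rows outside. Among intervals of at least 100 bases, 87.5% had at least 90% of their 100-base windows occurring once in the genome, against 98.1% outside. CG dinucleotides numbered 2.04 per 100 bases at the median (quartiles 1.48 and 2.78), against 1.95 outside.

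The sequences that follow are those of intervals on which the comparisons turn, so that their base composition can be read beside their values. They are on the forward strand of TAIR10, as given by RefSeq, with CG dinucleotides in capitals, and show the 300 bases at the centre of an interval or all of a shorter one. The first 2 come from intervals that were higher in jas-3 than in WT by their labels and the next 1 from an interval that was lower.
chr2:6801280-6801579: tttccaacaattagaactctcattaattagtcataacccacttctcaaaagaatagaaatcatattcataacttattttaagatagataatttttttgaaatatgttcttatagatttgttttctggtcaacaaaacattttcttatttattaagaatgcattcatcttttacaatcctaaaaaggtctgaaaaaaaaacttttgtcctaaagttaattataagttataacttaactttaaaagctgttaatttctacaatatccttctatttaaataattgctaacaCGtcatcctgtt
chr3:16580722-16581021: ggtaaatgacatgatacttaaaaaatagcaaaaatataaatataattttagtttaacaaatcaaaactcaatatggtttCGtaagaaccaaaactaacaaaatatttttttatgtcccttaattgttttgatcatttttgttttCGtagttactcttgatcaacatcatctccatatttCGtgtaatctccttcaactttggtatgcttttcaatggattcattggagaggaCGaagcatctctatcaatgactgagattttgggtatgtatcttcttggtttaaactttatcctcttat
chr2:3853124-3853423: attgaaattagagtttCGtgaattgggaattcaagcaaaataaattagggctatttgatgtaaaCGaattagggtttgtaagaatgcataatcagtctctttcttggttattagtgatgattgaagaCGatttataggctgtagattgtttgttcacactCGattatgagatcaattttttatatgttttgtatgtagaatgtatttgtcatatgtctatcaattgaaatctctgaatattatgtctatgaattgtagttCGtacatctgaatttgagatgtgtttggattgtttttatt
Intervals higher in Aza1 eM2 than in DMSO gave the next 2 sequences, and intervals lower in Aza1 eM2 the 2 after them, of which the last holds 9 bases.
chr1:17533119-17533418: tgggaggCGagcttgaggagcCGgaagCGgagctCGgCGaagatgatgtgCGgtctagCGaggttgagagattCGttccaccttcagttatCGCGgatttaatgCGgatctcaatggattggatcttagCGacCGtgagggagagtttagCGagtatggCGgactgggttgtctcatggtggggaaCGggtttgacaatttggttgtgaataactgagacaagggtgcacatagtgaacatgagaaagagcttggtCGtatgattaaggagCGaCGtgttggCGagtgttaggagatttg
chr5:14680304-14680603: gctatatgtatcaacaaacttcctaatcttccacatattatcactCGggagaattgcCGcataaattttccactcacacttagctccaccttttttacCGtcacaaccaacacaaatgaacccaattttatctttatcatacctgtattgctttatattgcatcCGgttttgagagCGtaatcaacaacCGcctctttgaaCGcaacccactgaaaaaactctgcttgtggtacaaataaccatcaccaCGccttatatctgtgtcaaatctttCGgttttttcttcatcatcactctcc
chr2:1889321-1889620: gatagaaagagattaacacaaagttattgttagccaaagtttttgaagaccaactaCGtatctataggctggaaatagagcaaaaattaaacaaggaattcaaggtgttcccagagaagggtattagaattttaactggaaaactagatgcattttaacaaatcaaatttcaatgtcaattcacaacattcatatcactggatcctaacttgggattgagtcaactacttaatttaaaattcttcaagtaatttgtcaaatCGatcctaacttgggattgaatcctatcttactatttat
chr2:6044311-6044319: aaacaattc
The intervals with the highest mean counts over all libraries gave the last 2 sequences.
chr3:14202462-14202761: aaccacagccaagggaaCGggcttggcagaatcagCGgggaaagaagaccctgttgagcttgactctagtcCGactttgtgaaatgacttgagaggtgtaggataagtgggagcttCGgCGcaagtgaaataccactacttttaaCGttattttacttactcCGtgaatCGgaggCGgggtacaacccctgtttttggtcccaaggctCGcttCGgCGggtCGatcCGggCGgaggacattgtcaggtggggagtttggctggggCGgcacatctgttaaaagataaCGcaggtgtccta
chr2:4480037-4480336: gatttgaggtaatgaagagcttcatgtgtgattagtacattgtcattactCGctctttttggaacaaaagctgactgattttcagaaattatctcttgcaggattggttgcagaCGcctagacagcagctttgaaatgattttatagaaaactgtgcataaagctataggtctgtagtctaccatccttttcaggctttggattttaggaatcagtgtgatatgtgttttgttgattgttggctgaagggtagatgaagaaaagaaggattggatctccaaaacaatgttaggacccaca
The 300 bases on chromosome 1 held 20 CG dinucleotides, those on chromosome 5 held 9, and the 2 from intervals higher in jas-3 held 1 and 4.

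Most of the intervals had no transcript that these libraries could show. No count fell on 10930 of them (59.3%) in any library, against 15.1% of the intergenic rows outside. Between 576 and 981 intervals per library held at least 10 counts, with 625 and 576 in WT, 981 and 928 in jas-3, 831 to 958 in DMSO, 787 to 826 in Aza1 eM2 and 821 to 953 in Aza1 eM3, so that WT lay below all other groups. Scaled to the library, as counts per 1000000 gene counts after TMM scaling (the level used below), 430 to 524 intervals per library reached a level of 0.5, with 443 and 449 in WT, 456 and 493 in jas-3, 434 to 476 in DMSO, 430 to 491 in Aza1 eM2 and 447 to 524 in Aza1 eM3. On this scale WT lay below jas-3 and within or beside the ranges of the other groups. The count model could test 1402 intervals (7.61%), of which 61 held no base of their own and 1223 held at least 100 bases. Of the tested intervals, 473 were overlapped by a gene of the RefSeq annotation that is not a row of the table, and 51 had a total count within 10% of that of the interval before them.

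A single interval carried most of the counts. It lies at chr3:14199916-14205307, between the ribosomal RNA gene AT3G41979 and a DNA transposon fragment, and holds 5390 bases. RefSeq places the gene AT3G06365, typed misc_RNA, wholly within it, and the long non-coding RNA AT3G06355 across its start. The share of its counts that came from these genes was not tested. Of its 100-base windows, 20.1% occur once in the genome. Its counts were 202783 and 375564 in WT, 265580 and 269010 in jas-3, 260677, 394358 and 144137 in DMSO, 286396, 196419 and 401876 in Aza1 eM2 and 298014, 194859, 257359 and 298401 in Aza1 eM3. These are 61.9% to 87.3% of all counts on the intervals, and in counts every group overlapped every other. In level WT, with 6592 and 14600, lay above jas-3, with 4914 and 5722, and the other groups lay between 3055 and 11040. Of the 5 intervals with the highest mean counts, 4 lay in this stretch of chromosome 3, among them chr3:14199484-14199753 between the ribosomal RNA genes AT3G41768 and AT3G41979, with 1132 to 2749 counts per library and 10.8 CG dinucleotides per 100 bases. The other one, chr2:4476894-4483478, lies between a Copia element and a LINE and is overlapped by the RefSeq pseudogene AT2G11240 and the protein-coding gene AT2G11225. It had 2075 and 1733 counts in WT, 5244 and 5647 in jas-3, 3701, 2570 and 4885 in DMSO, 2928, 5123 and 3206 in Aza1 eM2 and 4837, 4144, 4027 and 3581 in Aza1 eM3. WT was below all other libraries in these counts, and no comparison of its groups passed the test.

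Counted per kilobase, 3 of the 5 highest intervals of at least 100 bases lay beside genes and the others beside ribosomal RNA genes. The 182 bases of chr5:15383934-15384117 adjoin RBCS1B (AT5G38430), which encodes a small subunit of Rubisco, and had 757 to 5091 counts per library. The 126 bases of chr1:17466624-17466751 adjoin SEC3B (AT1G47560), a gene of the exocyst, and had 718 to 1322. The 110 bases of chr5:9571989-9572100 between AT5G27200 (ACP5) and AT5G27210 (Cand8) had 100 to 615. Beside RBCS1B the highest count was in jas-3 and the lowest in Aza1 eM3, and none of the 3 intervals was called in any comparison.

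The summed level of the intervals followed the interval beside the ribosomal RNA genes, an interval that RefSeq genes overlap. Over all 18434 intervals it was 12570 ± 5870 (SD, n = 2) in WT, 7366 ± 652 (n = 2) in jas-3, 7503 ± 2960 (n = 3) in DMSO, 9935 ± 3420 (n = 3) in Aza1 eM2 and 8214 ± 1410 (n = 4) in Aza1 eM3. The log2 difference was -0.69 for jas-3 against WT (two-sided exact permutation test, p = 0.333, the smallest the design allows), 0.42 for Aza1 eM2 against DMSO (p = 0.5 by the same exact test, smallest possible 0.1) and -0.23 for Aza1 eM3 against Aza1 eM2 (p = 0.514, exact, smallest possible 0.0286). The spread within groups on this scale was between 0.41 and 0.55, so that neither of the last 2 differences exceeded it.

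Without the 10 intervals of highest mean count the groups lay closer and, after TMM scaling, the Aza1 libraries lay above the DMSO libraries. The summed levels were 1457 and 1611 in WT, 1385 and 1583 in jas-3, 1427 to 1496 in DMSO, 1648 to 1791 in Aza1 eM2 and 1552 to 1705 in Aza1 eM3. The 3 Aza1 eM2 libraries did not overlap with the 3 DMSO libraries, with a log2 difference of 0.22 (p = 0.1, exact permutation test, the smallest the design allows). In counts they did overlap, with 64843, 72574 and 61979 in Aza1 eM2 and 74501, 65835 and 70584 in DMSO. The separation thus rests on the TMM factors, which were 0.883, 1.058 and 0.885 in Aza1 eM2 and 1.243, 1.072 and 1.08 in DMSO. In log2 of the summed level Aza1 eM3 differed from Aza1 eM2 by -0.05 (p = 0.4, exact). The jas-3 libraries differed from WT by -0.05 (p = 0.667, exact). The summed level of the intergenic rows outside the limits was 13130 ± 1150 (n = 2) in jas-3 against 20890 ± 2570 (n = 2) in WT. Both comparisons rest on the TMM factors, 1.287 and 1.124 in jas-3 and 0.759 and 0.631 in WT. In counts the rows outside were higher in jas-3, with 665758 and 655536 against 586529 and 584157 in WT. So were the intervals without the 10, with 74870 and 74408 against 44825 and 41447. The ratio of pericentromeric to other intergenic counts without those 10 intervals, which needs no scaling, was 0.62 higher in jas-3 than in WT on the log2 scale (p = 0.333, exact, the smallest possible), and -0.02 with them. Against DMSO the same ratio was 0.10 higher in Aza1 eM2 without the 10 intervals (p = 0.5, exact) and 0.29 higher with them (p = 0.5, exact). The storage shares of WT (36.7% and 42.5%) and jas-3 (7.97% and 17.0%) did not overlap either, and their part in these ratios was not tested.

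**Figure D1:**
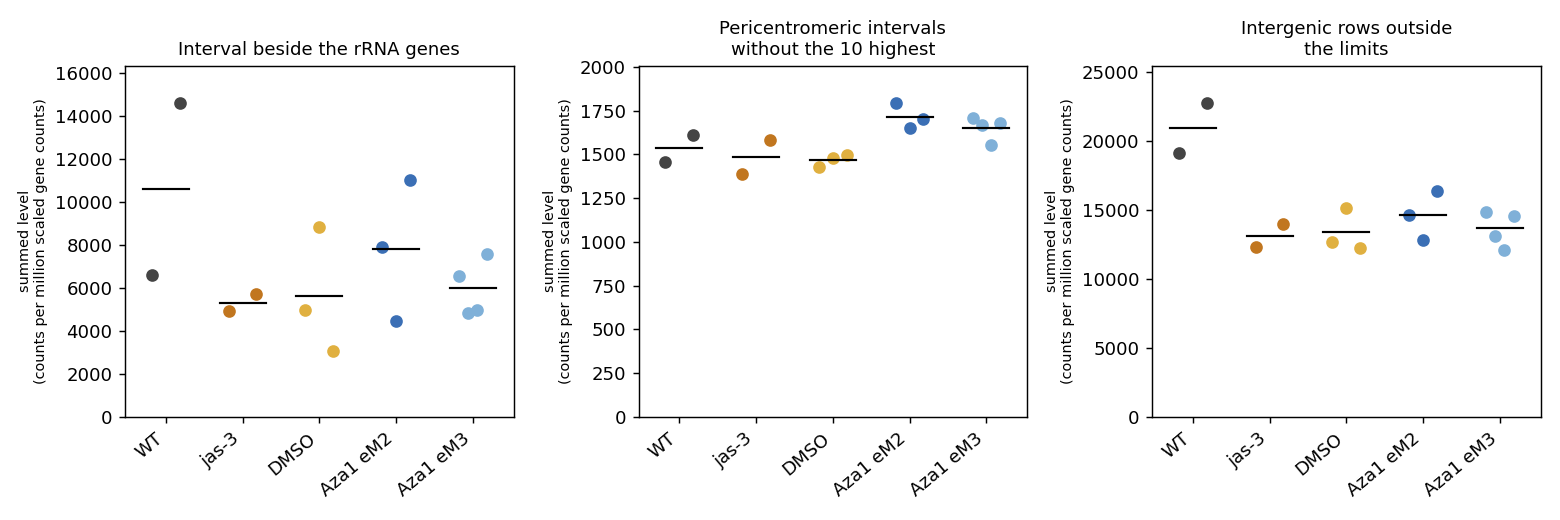
Summed level per library (points, with the group mean as a line) in counts per 1000000 scaled gene counts, for the interval beside the ribosomal RNA genes, for the pericentromeric intervals without the 10 of highest mean count, and for the intergenic rows outside the limits. In the middle panel the Aza1 eM2 libraries (1648 to 1791) lie above the DMSO libraries (1427 to 1496), and in the right panel WT lies above all other libraries. Neither order held in the counts before TMM scaling.

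In the libraries labelled jas-3, more intervals were higher than lower against WT, and most of the higher ones stood beside a gene or TE that was higher as well. Of the 1402 intervals tested, 126 were higher and 46 lower (edgeR's quasi-likelihood test, log2 fold change of at least 2 in size and adjusted p under 0.01), or 8.99% and 3.28%, where 8.03% of all 35718 features tested were higher and 2.14% lower. The median log2 fold change was 0.11 over the intervals and 0.08 over all features. The filter on low counts used all groups, so an interval at 0 elsewhere could be tested because it was high in WT. The share of lower calls is thus in part set by the filter. The 172 called intervals (12.3% of those tested, against 10.2% of all features) form 170 loci when neighbours with near-equal counts are joined. With gene totals alone as the scale 234 were higher and 40 lower, and with the storage share as a covariate, a fit added after the data had been seen, 30 were higher and 1 lower. WT and jas-3 did not overlap in storage share, nor in the endosperm, silique wall and pollen markers, so the genotype and the make-up of the silique cannot be told apart here. Without WT replicate 1 or 2 the test called 96 or 66 intervals, and without jas-3 replicate 1 or 2 it called 88 or 103.

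A neighbouring feature was called the same way at 98 of the 126 higher and 25 of the 46 lower intervals. The share over intervals that were not called was not taken, so the counts of flanks here and below are descriptions. Of the 126 higher intervals, 76 had a flanking gene and 34 a flanking TE that was called higher as well, and 28 had neither. Of the 46 lower intervals, 9 had a flanking gene and 17 a flanking TE called lower, and 21 had neither. By chromosome, the higher intervals numbered 20, 29, 35, 7 and 35 on chromosomes 1 to 5, and the lower ones 5, 9, 10, 8 and 14. The tested intervals numbered 256, 293, 337, 176 and 340 on chromosomes 1 to 5. On chromosome 4 the calls were few, and the lower ones were about as many as the higher ones. On chromosomes 1, 2, 3 and 5 the higher calls were more numerous. The share over all features by chromosome was not taken.

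The interval chr2:6800915-6801943, which holds 1027 bases between an ATCOPIA69 element and the gene AT2G15590, is one of the 3 rises that ranked first by fitted fold change. Its counts were 0 and 0 in WT, 203 and 320 in jas-3, 254, 276 and 220 in DMSO, 46, 100 and 66 in Aza1 eM2 and 373, 176, 270 and 142 in Aza1 eM3. WT lay at 0 and every other library above it, with Aza1 eM2 the lowest of the jas-3 background. Against the floor of 3 counts per library, its level was at least 32-fold higher in jas-3 and at least 39-fold higher in DMSO than in WT (edgeR adjusted p = 1.05e-05 and 7.23e-06). The interval chr3:16579814-16581929, between a Helitron and the gene AT3G45248, was also at 0 in both WT libraries, with 173 and 385 counts in jas-3, 278, 367 and 266 in DMSO, 36, 133 and 53 in Aza1 eM2 and 484, 207, 278 and 144 in Aza1 eM3, at least 27-fold higher in jas-3 than in WT (edgeR adjusted p = 0.000176). DMSO and Aza1 eM2 did not overlap in either interval, but neither passed the test between them (edgeR adjusted p = 0.0181 on chromosome 2 and 0.055 on chromosome 3). With the storage share as a covariate the rise in jas-3 on chromosome 3 was not called (edgeR adjusted p = 0.0126).

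At chr5:9911663-9912195, between the TEs AT5TE36100 and AT5TE36105 with no gene on either side, the counts were 0 and 0 in WT, 350 and 234 in jas-3, 382, 248 and 106 in DMSO, 14, 12 and 12 in Aza1 eM2 and 396, 78, 220 and 106 in Aza1 eM3. The level was at least 42-fold higher in jas-3 than in WT (edgeR adjusted p = 0.000248, and 0.0258 with the storage share as a covariate). The Aza1 eM2 libraries lay below all libraries of jas-3, DMSO and Aza1 eM3, with a log2 fold change of -3.93 ± 0.62 (SE) against DMSO (edgeR adjusted p = 0.00274), and Aza1 eM3 was higher than Aza1 eM2 by 3.74 ± 0.60 (edgeR adjusted p = 0.0047). Among the rises ranked first in DMSO against WT was chr1:17346983-17347094, 110 bases beside AT1G47317, at 0 in both WT libraries and at 219 to 332 counts in DMSO. Its counts were 221 and 264 in jas-3, 66, 106 and 80 in Aza1 eM2 and 150 to 248 in Aza1 eM3, again with Aza1 eM2 the lowest after WT.

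Intervals that were highest in WT stood beside both genes and TEs. At chr2:3852606-3853940, which holds 1333 bases between an ATHILA4C element of the Gypsy class and a Harbinger element, counts were 126 and 90 in WT and 0 in all 12 other libraries but Aza1 eM2 replicate 3, which had 2. The level was at least 54-fold lower in jas-3 than in WT (edgeR adjusted p = 0.00106). At chr2:5791126-5792231, between AT2G13840 and a Helitron, counts were 140 and 160 in WT, 0 and 2 in jas-3 and 0 in all DMSO and Aza1 libraries, which is at least 67-fold lower in DMSO than in WT (edgeR adjusted p = 0.000449). At chr5:13968612-13971106, overlapped by the RefSeq pseudogene AT5G35796, counts were 108 and 50 in WT, 0 in jas-3 and DMSO, 2, 14 and 0 in Aza1 eM2 and 0 in Aza1 eM3. Both WT libraries lay above all 12 other libraries in each of these 3 intervals. Each of the 3 could pass the filter on low counts through WT alone, which limits what these tests add. The fall at chr2:3852606-3853940 in jas-3 was not called by DESeq2 (adjusted p = 0.168) or with the storage share as a covariate (edgeR adjusted p = 0.247), and that at chr2:5791126-5792231 in DMSO not with the covariate (edgeR adjusted p = 0.106). The call at chr5:13968612-13971106 in DMSO against WT (edgeR adjusted p = 0.00288) was lost by DESeq2 (adjusted p = 0.14) and without WT replicate 1 or 2 (edgeR adjusted p = 0.0172 or 0.0118).

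A fall on chromosome 4 beside GASA3 differed widely between the WT libraries. The 11 bases of chr4:6072792-6072804 beside GASA3 (AT4G09600), a gibberellin-regulated gene, had 14 and 146 counts in WT, 0 and 0 in jas-3, 1, 0 and 2 in DMSO, 12, 0 and 7 in Aza1 eM2 and 1, 7, 0 and 10 in Aza1 eM3. Both WT libraries lay above all others, the first of them by 2 counts. The WT libraries, with storage shares of 36.7% and 42.5%, differed from each other by more than 10-fold in counts, and the level in jas-3 was at least 7-fold lower (edgeR adjusted p = 0.00738). The call was lost without WT replicate 2 and without jas-3 replicate 1 or 2 (edgeR adjusted p = 0.0765, 0.0571 and 0.0391), and narrowly without any of 5 other libraries (0.0103 to 0.0109). With the storage share as a covariate it was not called, and the direction turned, with a log2 fold change of 2.59.

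DMSO against WT gave more calls, and DMSO against jas-3 gave none. Against WT, 136 intervals were higher and 81 lower in DMSO (9.70% and 5.78%, where 8.7% of all features were higher and 3.37% lower, 12.1% together), and with gene totals alone 227 were higher and 49 lower. With the storage share as a covariate 45 were higher and 3 lower. Here too the share of lower calls is in part set by the filter on low counts. WT is shared by both comparisons, so they are not independent of each other. Without WT replicate 1 or 2 the count of 217 was 130 or 79, and without DMSO replicate 1 it was 138. Between DMSO and jas-3 no interval was called by edgeR, 72 had an unadjusted p under 0.05, DESeq2 called 1, and 0.0588% of all features were higher and 0.0756% lower, 0.134% together.

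**Figure D2:**
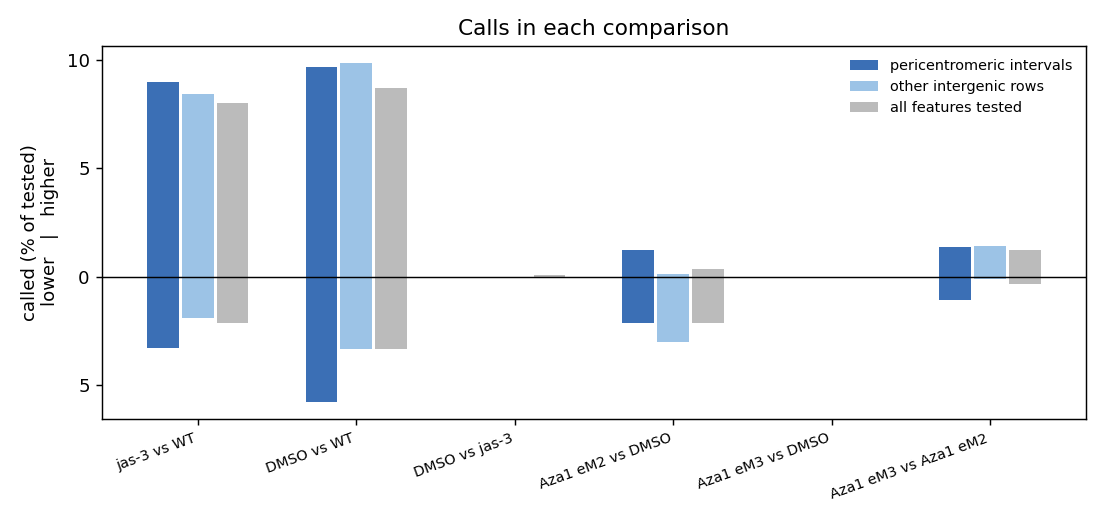
Percent of the tested features called higher (above 0) and lower (below 0) in each comparison, for 1402 pericentromeric intervals, 8585 other intergenic rows and all 35718 features. For Aza1 eM2 against DMSO 1.21% of the pericentromeric intervals were higher, against 0.14% of other intergenic rows and 0.372% of all features. Shares of calls are in part set by the filter on low counts, which rows high in WT alone or in Aza1 eM2 alone can pass.

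In Aza1 eM2, 17 intervals were higher and 30 lower than in DMSO (1.21% and 2.14%, where 0.372% of all features were higher and 2.16% lower, 2.54% together). The balance rested on the libraries and rows used, with 43 higher and 18 lower without Aza1 eM2 replicate 2, 12 and 8 without replicate 1, 15 and 10 without replicate 3, 44 and 44 with intergenic rows alone and 131 and 68 without a filter on low counts. In the fit of all libraries the share of lower calls was close to the background, and the share of higher calls was above it, as it was for TEs, of which 2.56% were higher. Among the intergenic rows outside the limits 0.14% were higher and 3.01% lower. These shares are descriptions, since neighbouring rows are not independent. The filter on low counts also used all groups, so an interval at 0 elsewhere could be tested because it was high in Aza1 eM2. It passed 7.61% of the intervals and 26.1% of the rows outside. The share of higher calls is thus in part set by the filter. The median log2 fold change was 0.00 over the intervals, as over all features. The higher intervals lay on chromosomes 1 (6), 3 (1), 4 (3) and 5 (7). None lay on chromosome 2, where 293 intervals were tested. Of the 17, 11 were overlapped by a RefSeq gene that the table does not list. A flanking gene was called higher at 5 of the 17 and a flanking TE at 7.

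The lower intervals in Aza1 eM2 were for the most part among those higher in jas-3, as were the lower features as a whole. Of the 30, 24 (80.0%) were also among the 126 intervals called higher in jas-3 against WT, of which they are 19.0%, and the 2 comparisons share no library. Over all features the share was 93.4% (722 of 773, which are 25.2% of the 2867 higher in jas-3), so the overlap is not particular to the intervals. A flanking gene was called lower at 14 of the 30 and a flanking TE at 8. No interval called higher in Aza1 eM2 was called in jas-3 against WT in either direction. The storage share was 21.8% to 30.7% in Aza1 eM2 and 10.7% to 22.6% in DMSO. With it as a covariate 15 intervals were higher and 7 lower, and 17 of these 22 were among the 47. Without DMSO replicate 1 or 2 the test called 19 or 25 intervals, and without Aza1 eM2 replicate 1, 2 or 3 it called 20, 61 or 25.

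A stretch of chromosome 1 around AT1G47660 gave 2 of the 3 rises that ranked first by fitted fold change. At chr1:17532763-17533774, between an ATLANTYS3 element of the Gypsy class and a VANDAL6 element of the MuDR class, counts were 2 and 0 in WT, 0 and 0 in jas-3, 2, 2 and 0 in DMSO, 282, 183 and 561 in Aza1 eM2 and 1, 0, 1 and 0 in Aza1 eM3. This was a log2 fold change of 8.21 ± 0.77 (SE) against DMSO (edgeR adjusted p = 0.000363), and Aza1 eM3 was lower than Aza1 eM2 by -9.32 ± 0.75 (edgeR adjusted p = 9.62e-05). The interval holds 5.74 CG dinucleotides per 100 bases, above the upper quartile of the intervals, as the 20 in the stretch printed above show, and RefSeq places the protein-coding gene AT1G47657 across it. At chr1:17535551-17536667, between AT1G47660 and AT1G47670, counts were 71, 42 and 130 in Aza1 eM2 and 0 in all 11 other libraries. Like the interval before it, it could pass the filter on low counts through Aza1 eM2 alone, which limits what the tests add. Its level was at least 14-fold higher than in DMSO (edgeR adjusted p = 0.00722) and at least 12-fold higher than in Aza1 eM3. Neither call was made by DESeq2 (adjusted p = 0.275 and 0.285), and that against DMSO was lost without any 1 DMSO library (edgeR adjusted p = 0.0154 to 0.0216), without Aza1 eM2 replicate 1 or 3 (0.0294 or 0.0171) and with the storage share as a covariate (0.0294).

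On chromosome 5, the interval chr5:14680141-14680765, between an ATMU1 and an ATREP16 element and overlapped by the RefSeq pseudogene AT5G37125, had 36, 174 and 106 counts in Aza1 eM2, 2 and 0 in jas-3 and 0 in all WT, DMSO and Aza1 eM3 libraries. It was at least 14-fold higher in Aza1 eM2 than in DMSO (edgeR adjusted p = 0.00454), a call lost without any 1 DMSO library (0.0109 to 0.0155) and without Aza1 eM2 replicate 2 or 3 (0.0123 or 0.016). The interval chr5:14546631-14546924, beside AT5G36900, had 58, 145 and 121 counts in Aza1 eM2, 0 in WT and Aza1 eM3, 2 and 1 in jas-3 and 0, 3 and 1 in DMSO, and fell at least 21-fold from Aza1 eM2 to Aza1 eM3 (edgeR adjusted p = 0.000932). In all 4 of these intervals the Aza1 eM2 libraries stood above every other library and Aza1 eM3 was at 0 or 1 count. Those on chromosome 5 could likewise pass the filter on low counts through Aza1 eM2 alone, which limits what their tests add.

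The 3 falls in Aza1 eM2 that ranked first by fitted fold change were of low counts, while the falls at chr5:9911663-9912195 and chr2:2262567-2263816 were from 61 counts or more in every DMSO library to 14 or fewer. At chr3:15837126-15837214, 87 bases beside AT3G44080, counts were 0 and 0 in WT, 13 and 18 in jas-3, 25, 9 and 17 in DMSO, 0 in all Aza1 eM2 libraries and 18, 6, 17 and 3 in Aza1 eM3. At chr2:1889003-1889938, between 2 MuDR elements, they were 2 and 0 in WT, 6 and 6 in jas-3, 18, 11 and 8 in DMSO, 0 in Aza1 eM2 and 6, 2, 2 and 2 in Aza1 eM3. At chr2:6044310-6044320, which holds 9 bases between 2 LIMPET1 elements and lies within the RefSeq protein-coding gene AT2G14265, they were 0 in WT and Aza1 eM2, 6 and 3 in jas-3, 9, 16 and 11 in DMSO and 10, 2, 9 and 6 in Aza1 eM3. In each of them Aza1 eM2 was at 0 and DMSO at 8 counts or more, which is at least 2-fold lower (edgeR adjusted p = 0.0079, 0.00695 and 0.00716), and the depth sets no larger bound. All 3 calls were lost without any 1 Aza1 eM2 library (edgeR adjusted p = 0.0196 to 0.0259) and with the storage share as a covariate (0.035 to 0.043).

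No interval passed the test between Aza1 eM3 and DMSO. By edgeR 126 intervals had an unadjusted p under 0.05, DESeq2 called 12, all of them higher, and 0.0% of all features were called in either direction. Between the 2 generations, 19 intervals were higher and 15 lower in the eM3 libraries (1.36% and 1.07%, where 1.24% of all features were higher and 0.33% lower, 1.57% together). Of the higher intervals 9 lay on chromosome 2, and of the lower ones 8 lay on chromosome 5, where 293 and 340 of the 1402 tested intervals lay. Of the 19 higher intervals, 13 (68.4%) were among the 126 called higher in jas-3 against WT, of which they are 10.3%, against 94.6% (420 of 444) over all features. This comparison shares the Aza1 eM2 libraries with that of Aza1 eM2 against DMSO. Without Aza1 eM2 replicate 1, 2 or 3 the balance turned, with 7 higher and 12 lower, 8 and 39 or 5 and 13, and it turned with intergenic rows alone (29 and 44) and without a filter (67 and 120). The count of 34 was thus 19, 47 or 18, and without Aza1 eM3 replicate 1 or 3 it was 19 or 22. With the storage share as a covariate 14 were higher and 22 lower.

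Some intervals were high in Aza1 eM3 and in no other group. At chr2:1251391-1252886, between 2 Helitrons, counts were 0 and 6 in WT, 8 and 0 in jas-3, 6, 8 and 4 in DMSO, 0, 24 and 2 in Aza1 eM2 and 1423, 937, 15195 and 10281 in Aza1 eM3. All 4 Aza1 eM3 libraries lay above every other library, and replicates 3 and 4 lay above replicates 1 and 2. The log2 fold change was 9.44 ± 1.30 (SE) against Aza1 eM2 (edgeR adjusted p = 0.00196, and 0.0142 or 0.0123 without Aza1 eM2 replicate 1 or 3) and 10.22 ± 1.36 against DMSO (edgeR adjusted p = 0.0436, which misses the threshold). The interval holds 1494 bases, all windows of which occur once in the genome, and 4.15 CG dinucleotides per 100 bases, and RefSeq places the protein-coding gene AT2G03965 across it. At chr2:1419517-1422029, between AT2G04170 and a LINE, counts were 4 and 10 in WT, 0 in jas-3, 0, 2 and 0 in DMSO, 0 in Aza1 eM2 and 156, 66, 309 and 128 in Aza1 eM3, at least 19-fold higher than in Aza1 eM2 (edgeR adjusted p = 0.00156). This interval could pass the filter on low counts through Aza1 eM3 alone, which limits what its test adds.

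The interval chr2:2262567-2263816, between a Helitron and AT2G05915, moved both ways. It had 30 and 18 counts in WT, 83 and 79 in jas-3, 71, 112 and 61 in DMSO, 7, 5 and 2 in Aza1 eM2 and 134, 682, 846 and 256 in Aza1 eM3. The log2 fold change was -3.81 ± 0.72 (SE) for Aza1 eM2 against DMSO (edgeR adjusted p = 0.00606) and 6.44 ± 0.72 for Aza1 eM3 against Aza1 eM2 (edgeR adjusted p = 0.000671). The lowest group was thus Aza1 eM2 and the highest Aza1 eM3, with no overlap between either and DMSO, although Aza1 eM3 was not called against DMSO (edgeR adjusted p = 0.312).

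**Figure D3:**
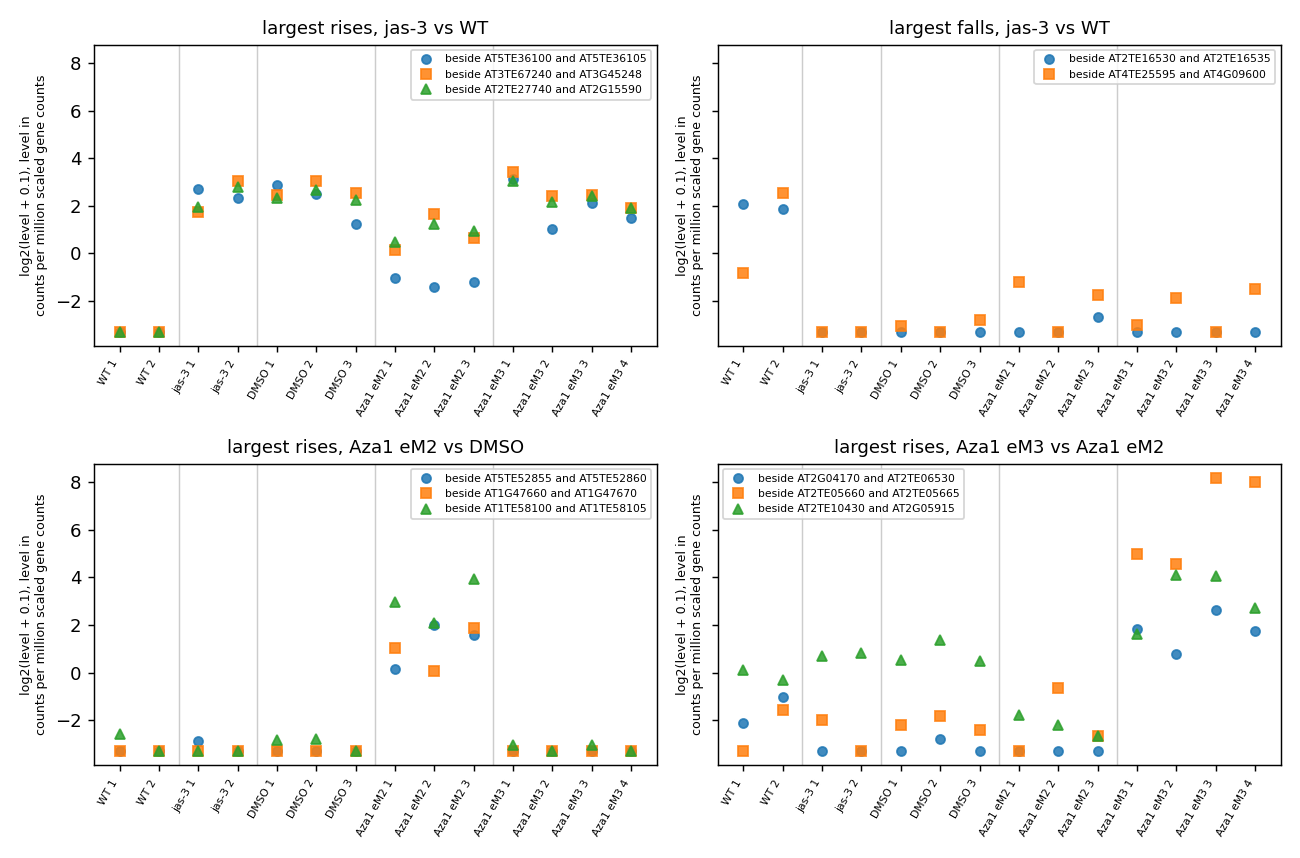
Level of the intervals whose rises or falls ranked first by fitted fold change, in each of the 14 libraries, as log2 of the level (counts per 1000000 scaled gene counts) plus 0.1, so that a library without counts lies at the bottom of a panel. The 4 panels show rises and falls of jas-3 against WT, rises of Aza1 eM2 against DMSO and rises of Aza1 eM3 against Aza1 eM2. Intervals are named by the features on either side, and grey lines divide the groups. The rises of Aza1 eM2 against DMSO are at or near the bottom in all groups but Aza1 eM2.

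Intervals that were near silent in the WT and jas-3 libraries were found on in every Aza1 library and in no DMSO library. Of the 18434 intervals, 17231 had a level under 0.25 in all 4 WT and jas-3 libraries. Of these, 55, 23 and 47 reached a level of 1 in the 3 Aza1 eM2 libraries, 10, 19, 3 and 7 did in the 4 Aza1 eM3 libraries, and 0, 0 and 0 did in the DMSO libraries. If the intervals were independent, which those that abut may not be, 0 of 17231 would allow a share of up to 0.0174% in a library. The 3 groups did not overlap, with 41.7 ± 16.7 (SD, n = 3) in Aza1 eM2, 9.75 ± 6.80 (n = 4) in Aza1 eM3 and 0 in DMSO. Of 24973 intergenic rows outside the limits that were near silent by the same measure, 16, 19 and 10 were on in Aza1 eM2, 6, 2, 2 and 1 in Aza1 eM3 and 0, 0 and 1 in DMSO. Per 10000 near-silent intervals this is 31.9, 13.3 and 27.3 in Aza1 eM2 within the limits and 6.41, 7.61 and 4.0 outside, higher within the limits in each library of Aza1. Of 28280 near-silent TE rows of the whole genome, 62.6, 50.6 and 60.8 per 10000 were on in Aza1 eM2, above the full set of intervals in each library. In Aza1 eM3 it was 7.78, 8.49, 2.48 and 2.48, against 5.8, 11.0, 1.74 and 4.06 for the intervals. For the 6737 near-silent intervals of at least 100 bases with at least 90% unique windows it was 66.8, 31.2 and 57.9 in Aza1 eM2. In Aza1 eM3 these intervals gave 11.9, 26.7, 4.45 and 8.91. The order against TE rows thus depends on the intervals counted. The levels of 0.25 and 1 were both chosen after the values had been seen, so no test is attached to these numbers.

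**Figure D4:**
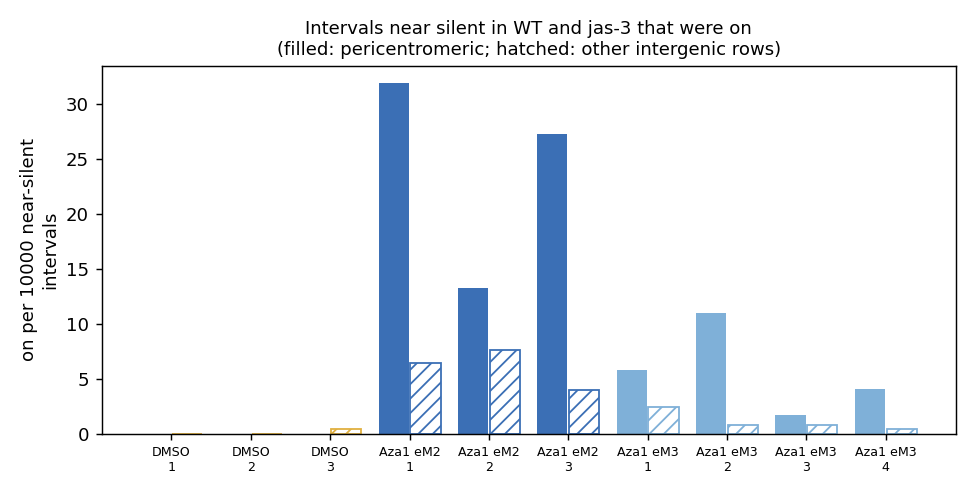
Intervals on, at a level of 1 or more, per 10000 that were near silent in the WT and jas-3 libraries, for each DMSO and Aza1 library. Filled bars are pericentromeric intervals and hatched bars other intergenic rows. The filled bars stand at 0 in DMSO, at 13.3 to 31.9 in Aza1 eM2 and at 1.74 to 11.0 in Aza1 eM3.

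The intervals that came on differed between libraries of the same generation. Near silence in all 7 WT, jas-3 and DMSO libraries and a level of 1 in at least 1 Aza1 library was found for 93 intervals. Of these, 71 were on in Aza1 eM2 libraries alone, 14 in Aza1 eM3 libraries alone and 8 in both generations, and 48 were on in a single library. Only 7 were on in all 3 Aza1 eM2 libraries, while 25 were on in replicates 1 and 3 of Aza1 eM2 and in no other library, 17 in replicate 1 alone, 10 in replicate 2 alone and 10 in replicate 3 alone. In Aza1 eM3, 10 were on in replicate 2 alone and 2 in all 4 libraries.

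The libraries with most intervals on differed from chromosome to chromosome. Of the 20 such intervals on chromosome 3, 17 were on in replicate 1 of Aza1 eM2, 14 in replicate 3 and 1 in replicate 2, and of the 19 on chromosome 2, 7, 8 and 0 were. On chromosome 4 replicate 2 had the most, with 8 of 13 against 6 and 2 in replicates 1 and 3. On chromosome 5 the 3 replicates had 16, 12 and 13 of 26. In Aza1 eM3, replicate 2 held 8 of the 19 on chromosome 2, of which 6 were on in it alone, and no other library of Aza1 eM3 had more than 2 there. Some of these 6 were close neighbours. Single TEs divide chr2:2617117-2618649, chr2:2618894-2619116 and chr2:2620320-2622154, and chr2:2570724-2572620 lies near chr2:2573542-2574503. Neighbours were not joined into loci here, so these counts are of rows that are not independent.

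The interval with the highest count of the kind in replicate 1 was chr3:13209287-13209957, between the TEs AT3TE54000 and AT3TE54005, with 1354, 0 and 443 counts in Aza1 eM2 and 0 in all 11 other libraries. At chr3:15954865-15956567, between AT3TE64570 and AT3TE64575, counts were 1097, 0 and 1176 in Aza1 eM2, 2, 12, 0 and 0 in Aza1 eM3 and 4 in all WT, jas-3 and DMSO libraries together. Replicate 2 of Aza1 eM2 was at 0 in both. At chr5:12498099-12500668, between AT5TE44305 and AT5TE44310, the pattern was the reverse, with 0, 398 and 0 counts in Aza1 eM2, and 222, 48, 2 and 0 in Aza1 eM3. At chr2:2753235-2754666, beside AT2G06845, replicate 2 of Aza1 eM3 had 627 counts and the other Aza1 libraries had 2 at most. These 4 were chosen after their values had been seen, to show the patterns.

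Intervals on in both generations were few. At chr5:10204189-10205372, between AT5TE37180 and AT5TE37185, with 41.5% of its windows unique, counts were 455, 170 and 420 in Aza1 eM2, 265, 121, 0 and 0 in Aza1 eM3 and 0 in all 7 WT, jas-3 and DMSO libraries. At chr3:13057225-13061048, beside AT3G32047, they were 518, 0 and 420 in Aza1 eM2 and 194, 143, 14 and 87 in Aza1 eM3. In both, libraries at 0 or close to it stood beside libraries with over 100 counts within 1 group. These 2 were likewise chosen after their values had been seen.

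In sequence, the 93 intervals were longer and held more CG dinucleotides than the intervals as a whole. They held 1318 bases at the median, 81 of them held at least 100 bases with at least 90% unique windows, and CG dinucleotides numbered 3.06 per 100 bases at the median of those with at least 100 bases, against 2.04 over all intervals of that length. A long interval gathers more counts than a short one, so the length is in part fixed by the level asked for. TEs stood on both sides of 61 of the 93, where 74.7% of all intervals lay between 2 TEs. A flanking TE was on in the same libraries at 29. RefSeq genes that the table does not list overlapped 59 of the 93, and 473 of the 1402 tested intervals. The part of such genes in the CG content of the 93 was not tested. Of their 152 flanking TEs, 34 (22.4%) were MuDR elements, 28 (18.4%) Helitrons, 25 (16.4%) Gypsy elements, 23 (15.1%) En-Spm elements and 22 (14.5%) L1 LINEs. Over the 31165 flanking TEs of all intervals the shares were 16.3%, 33.1%, 21.3%, 3.93% and 4.65%, so that En-Spm elements and LINEs were more frequent beside the 93 and Helitrons less so, as a description without a test.

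The reverse was seen in WT alone. Of the 17024 intervals near silent in all 7 Aza1 libraries, none reached a level of 1 in any of the 5 jas-3 and DMSO libraries, while 23 did in at least 1 WT library and 12 in both.

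**Figure D5:**
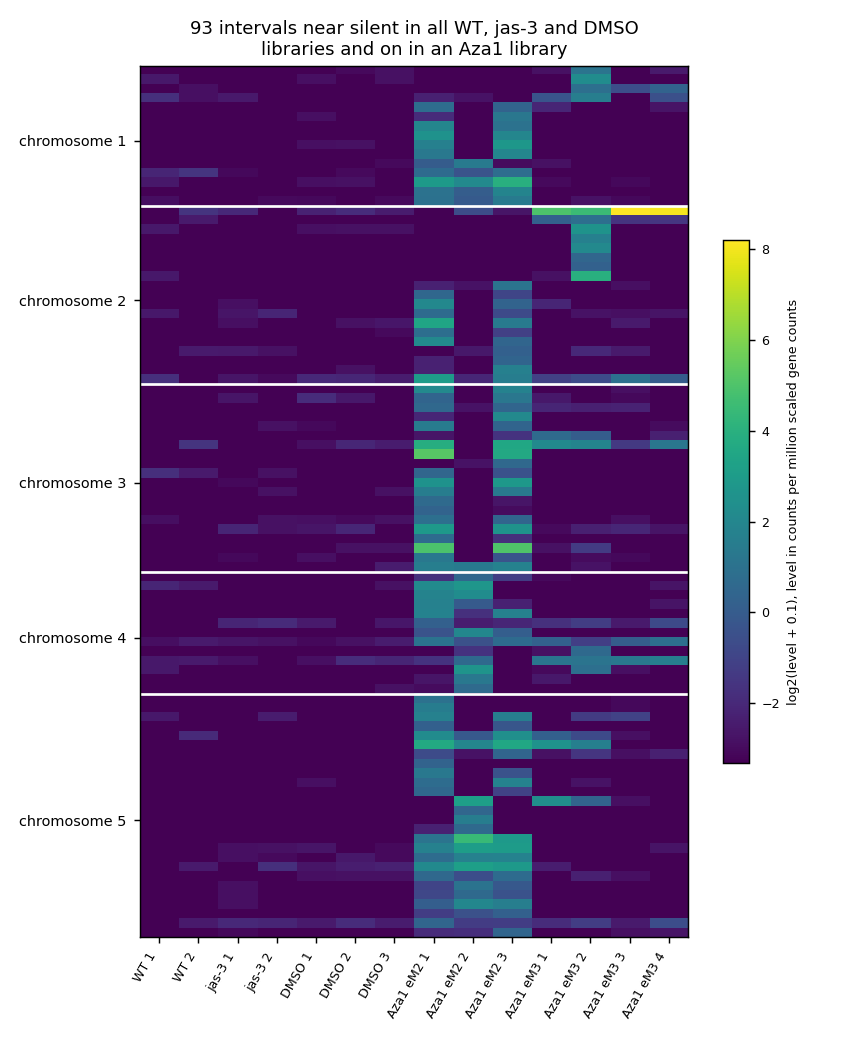
Level of the 93 intervals that were near silent in all WT, jas-3 and DMSO libraries and on in at least 1 Aza1 library, as log2 of the level plus 0.1, with 1 row per interval in the order of the chromosomes and 1 column per library. White lines divide the chromosomes. On chromosome 3 replicates 1 and 3 of Aza1 eM2 are on in 17 and 14 of 20 rows and replicate 2 in 1, and on chromosome 2 a block of rows is on in replicate 2 of Aza1 eM3 alone.

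Genes that hold this compartment silent were measured beside the intervals. Of 24 genes of the silencing pathways, all tested, 7 were called higher and 0 lower in jas-3 against WT, where 7.09% of all genes tested were higher and 2.0% lower. The 7 were MET1, the maintenance CG methyltransferase, VIM1, which recruits it, the remodeler DDM1, the CHG methyltransferase CMT3, the histone H3 lysine methyltransferases SUVH4 and ATXR6, and HTA6, a heterochromatic histone H2A. MET1 had 158 and 93 counts in WT, 1475 and 1316 in jas-3, 1574, 1012 and 1088 in DMSO, 663, 1224 and 939 in Aza1 eM2 and 1103, 859, 1742 and 796 in Aza1 eM3, with a log2 fold change of 2.65 for jas-3 against WT (edgeR adjusted p = 2.65e-05). Below the fold asked for, SUVH6, a histone methyltransferase related to SUVH4, and AGO4, the Argonaute of RNA-directed DNA methylation, were lower in jas-3 by log2 fold changes of -0.63 and -1.10 (edgeR adjusted p = 0.00822 and 0.000931). In MET1 WT was below all other libraries and the rest overlapped, and WT also had the highest storage shares, whose part in this was not tested.

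In DMSO against WT the same number of these genes was called, 7 higher and 0 lower. None of the 24 was called in the other 4 comparisons, neither by edgeR nor by DESeq2, with 0 at an unadjusted p under 0.05 in DMSO against jas-3 and 4 between Aza1 eM2 and DMSO. At that unadjusted p there was 1 between Aza1 eM3 and DMSO and there were 7 between the generations. Over the 24 genes the log2 fold change of Aza1 eM2 against DMSO lay between -0.58 and 0.49, with a median of 0.12.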

How the data were processed

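The authors aligned the reads with STAR to TAIR10 and deposited, for each of 14 libraries, raw counts per gene, TE and intergenic row. How reads that map to several places or overlap several features were counted, and whether strand was used, is not given in the sources used here, so intervals that abut, repeat or overlap other genes are uncertain. Members and lists were chosen with earlier results of these data known. RefSeq gave the sequences and the genes that overlap an interval, and the lengths of all 5 nuclear chromosomes matched those of its assembly.

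Features passing filterByExpr (edgeR 4.0.16, R 4.3.3, minimum count 10) were fitted together over all groups by the quasi-likelihood test, with the TMM-scaled gene total as library size, and p-values were adjusted by Benjamini-Hochberg over all 35718. The common biological coefficient of variation was 0.282. Called intervals had an absolute log2 fold change no smaller than 2 and an adjusted p under 0.01. Named are the 3 called intervals without overlap of largest fitted rise and fall per comparison and the 5 highest by count and by count per kilobase, of which 1 is not reported here. Folds against groups at 0 are bounds against a floor of 3 counts per library, which, like the limit for a share of 0, covers counting error only. Sums were compared by two-sided exact permutation tests. Alternatives were another threshold, no TMM, DESeq2 1.42.0, other filters, intergenic rows alone, halved counts, a replicate block, only the groups compared, each library left out, other sets of intervals and, added after the data were seen, the storage share as a covariate. The fits were tested on simulated data. Figures were drawn with matplotlib 3.10.9 under Python 3.11.15.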

Additional observations from a re-analysis of the deposited data

Results flagged for a closer look

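In the comparison of the generations, 34 intervals differed between Aza1 eM3 and Aza1 eM2, which is also the test of whether their differences from DMSO were unequal, since DMSO is common to both. Among the intervals named, the level in Aza1 eM3, at 0 in all libraries, was at least 13-fold lower than in Aza1 eM2 at chr5:14680141-14680765, at least 12-fold lower at chr1:17535551-17536667 and at least 21-fold lower at chr5:14546631-14546924, where no other group had more than 3 counts in a library. It was at least 19-fold higher at chr2:1419517-1422029, where Aza1 eM2 was at 0. The log2 difference of Aza1 eM3 minus Aza1 eM2 was 9.44 at chr2:1251391-1252886 and 6.44 at chr2:2262567-2263816, and in all 3 of these Aza1 eM3 was the highest group.

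At chr2:1889003-1889938, 1 of the 4 Aza1 eM3 libraries stood apart from the others, with 6 counts against 2 in each of the rest. Its gap in level was 0.872 of the range of the group, past Dixon's critical value. Of 26 intervals tested in this way it was the 1 past that value, and chance gives about 1 in 20.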

How the results depend on the processing

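Of 496 alternative values for 23 calls of named intervals, 410 kept the call, 85 lost it and 1 turned, and the cause was not tested. With the storage share as a covariate the fall at chr4:6072792-6072804 in jas-3 turned to 2.59, and the counts of called intervals became 31 (jas-3 against WT), 48 (DMSO against WT) and 22 (Aza1 eM2 against DMSO). For jas-3 against WT the count of 172 was 274 without TMM, 280 without a filter, 9 with at least 10 counts in every library, where 301 intervals were tested, 71 with only these groups, and 66 to 185 with 1 library left out. For DMSO against WT the count of 217 was 14 with at least 10 counts in every library and 79 to 227 with 1 library left out. For DMSO against jas-3 the count of 0 was 1 with DESeq2 and 5 without a filter. For Aza1 eM2 against DMSO the count of 47 was 83 with DESeq2, 199 without a filter, 1 with at least 10 counts in every library, 88 with intergenic rows alone and 19 to 61 with 1 library left out, the latter without Aza1 eM2 replicate 2. For Aza1 eM3 against DMSO the count of 0 was 12 with DESeq2, 32 without a filter and 3 with intergenic rows alone. For Aza1 eM3 against Aza1 eM2 the count of 34 was 65 with DESeq2, 187 without a filter, 1 with at least 10 counts in every library, 73 with intergenic rows alone, 13 with only these groups and 18 to 47 with 1 library left out. Without TMM the median log2 fold change of all intergenic rows was 1.0 for jas-3 against WT, 0.87 for DMSO against WT and -0.32 for Aza1 eM2 against DMSO.

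With the replicate number as a block the counts were 25 for Aza1 eM2 against DMSO, 22 for Aza1 eM3 against Aza1 eM2 and 1 for Aza1 eM3 against DMSO. Deviations of same-numbered libraries correlated between -0.173 and 0.0948, between -0.237 and -0.175 and between -0.323 and 0.243 in these comparisons and were 0.195 and 0.58 for the 2 numbers that DMSO shares with jas-3, where no interval was called with or without the block. The labels give the numbers no further meaning, so they were not taken to pair the libraries.

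The summed level of jas-3 against WT was 0.11 without TMM, -0.05 without the 10 highest intervals and 0.05 both with unique intervals alone and without the highest interval. Its ratio to other intergenic rows was 0.62 without the 10 highest and 0.72 in both of the others, and that of Aza1 eM3 against Aza1 eM2 was 0.16 with unique intervals and 0.15 without the highest. The number of near-silent intervals on, 41.7 more in Aza1 eM2 than in DMSO, was 26.3 with a level of 2 asked for and 68.0 with 0.5, and the 9.75 of Aza1 eM3 were 5.25 and 17.3. A floor of 3 counts limits what can be said of intervals under about 10 counts.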
